A study of Mus musculus with 9 samples.

Results

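The comparison of 5-FU+FMT with 5-FU+Saline mice was examined across all genes. It rests on 6 of the 9 RNA-seq libraries of the study, 3 for each group, chosen by their labels, and on 16595 of the 56262 annotated genes, those with enough counts to be tested. All mice were wild-type C57BL/6. Both groups received 5-FU at 250 mg/kg body weight, and the 5-FU+FMT mice then received FMT at 5 mg/kg body weight by intravenous injection 1, 4 and 7 days later. The 5-FU+Saline mice received saline, named PBS in the sample labels, on a schedule that the labels do not give. Mice were killed on day 8, and cells labelled long-term haematopoietic stem cells were sorted as lineage-negative, Sca1+, c-Kit+ and CD150+, with a last gate written C48-. The remaining 3 libraries came from untreated Control mice; they shared the model fit and are given as a reference level. The labels do not spell out FMT, and they do not say whether each library came from its own mouse, so p-values measure the spread between libraries, which may be technical.

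Long-term haematopoietic stem cells sit at the top of blood formation, are mostly out of the cell cycle and can rebuild all blood lineages. 5-FU, a pyrimidine analogue, blocks thymidylate synthase, disturbs RNA and DNA synthesis and kills cycling blood progenitors, after which the surviving stem cells enter the cycle. Freshly isolated stem and progenitor cells carry high levels of immediate early transcripts, whose genes are switched on within minutes by signals, stress and tissue handling. Marrow after 5-FU also changes in the makeup of its red cell, granulocyte, B-lineage and stromal compartments. In bulk RNA of sorted cells, a lower transcript level from fewer cells of a type cannot be told apart from less RNA per cell.

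The libraries held 13723506 to 15435644 counts in the FMT group, 15128336 to 19270976 in the saline group and 11098031 to 19095358 in the Control group. Values are given as CPM, counts scaled to a common library total after TMM normalization, and 3 values in a row are replicates 1, 2 and 3. In a principal component analysis of the 6 libraries, the first component held 59.5% of the variance and separated the groups without overlap, with saline scores of -35.4 to -34.9 and FMT scores of 33.1 to 37.3. The second component, at 10.7%, spread the 3 FMT libraries from -20.3 to 26.5. The 3 groups also differed in sex-linked RNA. Xist, the transcript of the inactive X chromosome, was at 693, 695 and 659 CPM in the FMT libraries and 1183, 1223 and 1198 CPM in the saline libraries, and the Y-linked helicase gene Ddx3y was at 99.7, 97.96 and 102 CPM and 37.8, 37.1 and 41.9 CPM. All 5 sex-linked genes listed differed in the test, 4 Y-linked genes upward and Xist downward, and at 0.8697 CPM the Control libraries were nearly free of Xist. Sex-linked RNA therefore moved with the treatment, and the 2 cannot be told apart in any result that follows. Each of the 6 libraries held RNA of both Xist and Ddx3y, at levels close within its group. The labels do not say whether a library pooled mice of both sexes, and this was not tested.

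The sort label was checked against its markers. Per kilobase of exon, Slamf1, which encodes the selected marker CD150, stood at 3.96 CPM in the FMT group and 5.61 CPM in the saline group. Cd48 stood higher, at 39.3 and 45.2 CPM. If C48- in the label means CD48-, the last gate selects cells without the protein of Cd48. Stem cell genes were present in both groups: Hlf, a transcription factor gene of stem cells, was at 59.04 and 36.4 CPM per kilobase, and Procr, the stem cell surface receptor gene also called EPCR, at 33.3 and 30.2. Cd79a, a B-cell gene that a lineage-negative sort of stem cells should lack, stood at 63.8 and 119 CPM per kilobase. The 11 immunoglobulin constant genes tested summed to 14319 to 14990 CPM in the FMT libraries and 12432 to 12835 CPM in the saline libraries, without scaling to length. RNA of B-lineage genes was thus present in both groups.

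In edgeR's quasi-likelihood test with Benjamini-Hochberg adjustment, 6123 of 16595 genes (36.9%) differed between the FMT and saline groups at an adjusted p under 0.05. Of the genes tested, 2945 (17.7%) were higher and 3178 (19.2%) were lower with FMT. The changes were mostly small, since the median size among called genes was 0.31 on the log2 scale, and replicate libraries were close, with a biological coefficient of variation of 3.74%. Genes called and at least 2-fold apart numbered 853 (5.14%), of which 586 were higher and 267 lower. At 4-fold the split was 182 higher and 68 lower, and at 8-fold it was 94 higher and 11 lower, so the largest differences among called genes lay on the higher side. The filter used all 9 libraries, so a gene low in both 5-FU groups could be tested through its Control libraries. With the 6 libraries of the comparison alone, the 2-fold counts were 510 higher and 275 lower. The part of the filter in the 4-fold and 8-fold splits was not tested. The 3 FMT libraries and the 3 saline libraries did not overlap at 7683 genes (46.3%). Genes called higher held 24.8% of the CPM in the FMT group and 18.8% in the saline group, and genes called lower held 36.5% and 42.5%. The median log2 fold change over all genes tested was 0.01, which is the level each gene list below was read against. With a stricter filter of 5 CPM in 3 libraries, the 2-fold counts were 288 higher and 79 lower, so the 2-fold genes were largely of low abundance.

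**Figure D1:**
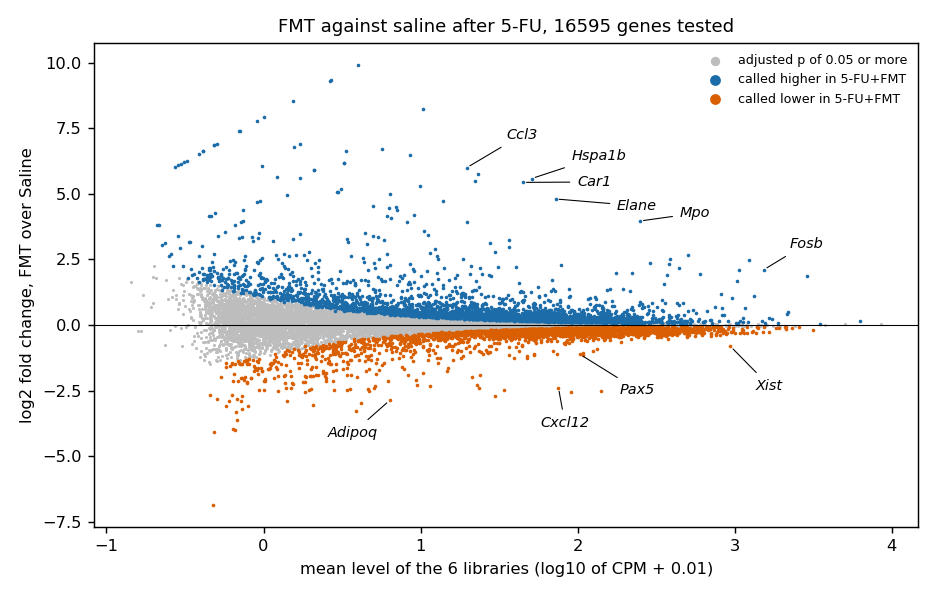
Each point is 1 of the 16595 genes tested, with its mean level over the 6 libraries on the x axis (log10 of CPM + 0.01) and its fitted log2 fold change of 5-FU+FMT over 5-FU+Saline on the y axis. The 2945 genes called higher and the 3178 called lower are coloured, and the points far above 0 reach further than those below it.

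Immediate early genes were higher with FMT, and AP-1 genes together stood at 7359 to 8051 CPM in the FMT libraries and 2565 to 2581 CPM in the saline libraries. Among 11 genes of AP-1 transcription factors, 9 rose and 2 had no call, with a median log2 fold change of 0.82. A list of 12 early genes held EGR, NR4A and IER genes, which are induced in the same minutes, and others such as Ppp1r15a, Csrnp1 and Srf. Of these 12, 11 rose and 1 had no call, with a median of 0.78. Fos, at chr12:85473890-85477273, stood at 1530.4, 1538 and 1646 CPM in the 3 FMT libraries and 485, 490.1 and 491 CPM in the 3 saline libraries, with 3617 CPM on average in Control. It encodes the partner of Jun in AP-1, and each FMT library was above every saline library, 3.22-fold higher (log2 fold change 1.69 ± 0.02, SE; adjusted p = 1.58e-65). Jund, a family member with steadier expression, was also higher, at 308 against 125 CPM (2.47-fold). Fosb reached 2495 CPM and Jun 1729.9 CPM in the FMT group, and these 2 were the protein-coding genes that gained the most CPM.

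Egr1, a zinc-finger regulator that restrains stem cell division and movement, lies at chr18:34859823-34864984. It stood at 898, 955 and 992 CPM with FMT and 251, 253 and 239 CPM with saline. The 2 sets of libraries were far apart, 3.84-fold (log2 fold change 1.94 ± 0.03, SE; adjusted p = 9.67e-66), and Control stood at 2447 CPM. The orphan nuclear receptor gene Nr4a1 rose 2.05-fold, from 634 to 1299 CPM, Ier2 rose 1.95-fold and Ier5 rose 1.699-fold. Of 10 genes of Kruppel-like factors, zinc-finger proteins often linked to quiescence, 8 rose, 1 fell and 1 had no call. Klf2 stood at 327, 353 and 383 CPM with FMT and 86.1, 91.5 and 89.02 CPM with saline (3.98-fold), and Klf6 at 702, 722 and 766 CPM and 161, 162 and 160.5 CPM (4.52-fold). Neither gene's libraries overlapped, while Klf16, the one member that fell, moved 1.25-fold from 56.1 to 44.9 CPM.

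The brakes on this response moved with it. A list of 16 genes held dual-specificity phosphatases, which switch off MAP kinases, mRNA decay factors and others such as Rgs1, a regulator of G-protein signalling. Of these 16, 13 rose, 1 fell and 2 had no call, with a median of 0.57. Dusp1, at chr17:26505590-26562128, encodes a nuclear MAP kinase phosphatase. It stood at 519, 511 and 568 CPM with FMT and 185, 185 and 178 CPM with saline. All FMT libraries were above all saline libraries, 2.92-fold higher (adjusted p = 1.29e-55). Zfp36, whose protein tristetraprolin drives decay of AU-rich mRNAs, rose 2.24-fold, from 507 to 1137 CPM. Dusp4 was the member that fell, at 49.6 against 65.2 CPM (1.31-fold). Btg2, an antiproliferative early gene counted both in this list and among p53 targets, rose 2.603-fold. Malat1, an abundant nuclear long noncoding RNA, stood at 1811, 1817 and 1797 CPM with FMT and 863, 840.2 and 845 CPM with saline, 2.13-fold higher without overlap.

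**Figure D2:**
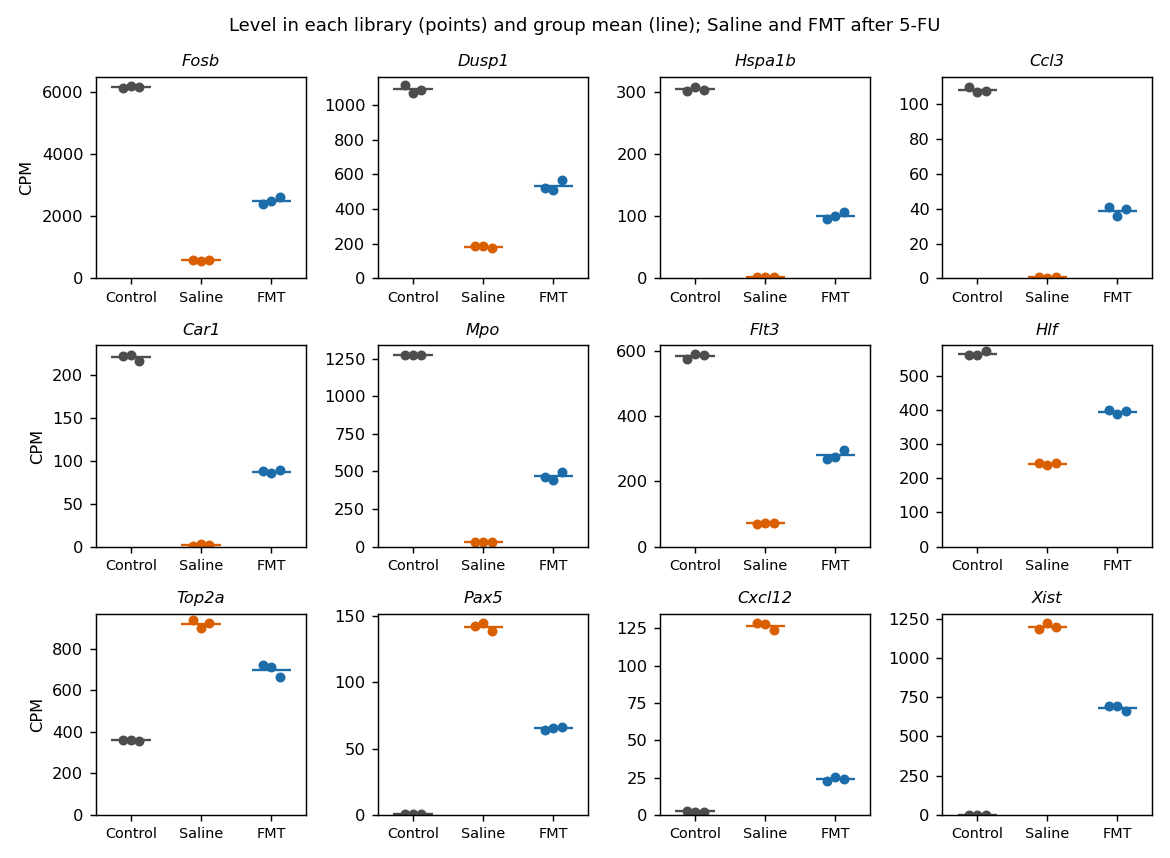
CPM of 12 genes in each of the 9 libraries, on linear axes that start at 0, with 1 point per library and the group mean as a line. The 3 libraries of a group lie close together, and the 5-FU+FMT mean falls between those of 5-FU+Saline and Control in all 12 genes drawn.

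Heat shock genes changed in both directions. Of 15 genes of heat shock chaperones, 7 rose, 5 fell and 3 had no call, with a median of 0.19. The inducible HSP70 genes had the largest change: Hspa1b, at chr17:34956436-34959238, stood at 94.8, 99.4 and 106 CPM with FMT and 2.05, 1.72 and 2.38 CPM with saline, and Control stood at 304 CPM. The saline libraries were near the bottom of the measurable range and none came near an FMT library, which gives 48.1-fold (log2 fold change 5.59 ± 0.08, SE; adjusted p = 1.14e-63). Its neighbour Hspa1a, a near-identical copy, was at 43.3 against 0.959 CPM (44.8-fold). Reads that fit both copies were not counted. Among the 5 that fell, Hsp90ab1, a cytosolic HSP90 gene, fell 1.13-fold from 3355 to 2969 CPM, and Hspd1, the mitochondrial HSP60 gene, fell 1.16-fold; the others, named after their values were seen, were Hspa8, Hsp90aa1 and Hspe1. Of 17 genes of endoplasmic reticulum chaperones and the integrated stress response, 9 rose, 3 fell and 5 had no call. Hspa5, the chaperone BiP, rose 1.63-fold to 936 CPM and Ppp1r15a, which restores translation after stress, rose 1.45-fold, while the protein disulfide isomerase genes Pdia3 and Pdia6 fell 1.18-fold and 1.105-fold.

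Windows of 300 bases around gene starts, 250 before and 50 after, were available from RefSeq on GRCm38.p6, the same build as mm10, for 678 of the 898 tested genes on the lists. The heat shock element, the binding motif of the factor HSF1, was searched as GAANNTTC, a palindrome that reads the same on both strands. It lay in the windows of 8 of 10 heat shock genes (80%) and of 9.04% of all 27025 genes with a window. The 8 included Hspa1a and Hspa1b, which rose with FMT, and Hspd1 and Hspe1, which fell. The Hspa1a and Hspa1b windows are near-identical, so their matches are not independent. The windows below are shown as examples of genes from 4 lists that changed whose window holds a match; of the genes shown, Hspa1b had the largest fold of its list and the others did not. Each is written 5′ to 3′ on the strand of its gene, with the matches of the motif named for it in capitals. Hspa1b lies on the minus strand at chr17:34959189-34959488, with the heat shock match 104 to 97 bases before the start. Kel, a red cell surface gene, lies on the minus strand at chr6:41704276-41704575, with the GATA motif AGATAA 56 to 51 bases before the start. Top2a, a mitosis gene, lies on the minus strand at chr11:99024140-99024439, with 6 matches to the CCAAT box. Uhrf1, a replication gene, lies on the plus strand with 2 windows, of which the one shown is at chr17:56304063-56304362, with the E2F motif TTTNNCGC 185 to 178 bases before the start.
Hspa1b: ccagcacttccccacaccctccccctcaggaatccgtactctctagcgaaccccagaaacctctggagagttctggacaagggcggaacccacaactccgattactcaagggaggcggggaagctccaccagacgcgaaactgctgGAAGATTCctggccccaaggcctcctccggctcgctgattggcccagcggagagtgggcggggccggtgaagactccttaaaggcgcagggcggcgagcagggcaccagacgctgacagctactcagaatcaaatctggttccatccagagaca
Kel: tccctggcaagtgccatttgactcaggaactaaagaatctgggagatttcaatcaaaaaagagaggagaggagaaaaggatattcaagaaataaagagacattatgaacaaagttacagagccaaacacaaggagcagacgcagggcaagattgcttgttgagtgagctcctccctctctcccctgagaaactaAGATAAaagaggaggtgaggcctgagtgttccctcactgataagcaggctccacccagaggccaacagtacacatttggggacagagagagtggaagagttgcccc
Top2a: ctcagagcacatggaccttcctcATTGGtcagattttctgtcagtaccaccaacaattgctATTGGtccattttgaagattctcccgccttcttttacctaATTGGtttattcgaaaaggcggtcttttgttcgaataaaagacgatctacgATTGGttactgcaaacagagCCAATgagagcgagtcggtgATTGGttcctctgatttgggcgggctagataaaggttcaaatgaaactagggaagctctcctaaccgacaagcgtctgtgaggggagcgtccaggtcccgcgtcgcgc
Uhrf1: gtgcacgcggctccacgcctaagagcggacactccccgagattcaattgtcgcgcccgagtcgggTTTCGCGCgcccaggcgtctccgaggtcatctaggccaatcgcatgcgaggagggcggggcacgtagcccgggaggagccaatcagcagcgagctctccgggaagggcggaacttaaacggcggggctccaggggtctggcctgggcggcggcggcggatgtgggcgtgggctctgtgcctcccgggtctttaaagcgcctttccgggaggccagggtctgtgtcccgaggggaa
A match of letters is a description of the window and not a binding site. All motifs were searched on both strands, the CCAAT box as CCAAT, and of those searched only the CArG box can hold another, CCAAT. The shares that follow are first over the list, then over all genes with a window and then over the 11047 tested genes with a window. The heat shock motif had 6.98% in the last of these. GATA matches lay in 3 of 10 red cell genes (30%), 12.7% and 8.14%. CCAAT matches lay in 15 of 20 mitosis genes (75%), 41.1% and 42.4%. E2F matches lay in 9 of 19 replication genes (47.4%), 5.93% and 9.56%. For 10 AP-1 genes, the cAMP response motif TGACGTCA lay in 1 window (10%, against 2.03% and 3.46%), while the AP-1 motif TGANTCA (8.97% and 6.35%) and the CArG box (1.81% and 1.61%) lay in 0. Of 9 genes on the list of EGR, NR4A, IER and other early genes, 1 held TGACGTCA (Ppp1r15a) and 1 held TGANTCA (Csrnp1). The CArG box lay in 2 of them (Egr2 and Srf). The C/EBP motif TTGCNNAA lay in 2 of 9 primary granule genes (22.2%, 12.2% and 10.3%), and the EBF motif CCCNNGGG in 4 of 15 B-lineage genes (26.7%, 15.4% and 20.9%).

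The chemokine genes Ccl3 and Ccl4 led the inflammatory genes. Of 22 NF-kB and inflammatory genes, 11 rose, 2 fell and 9 had no call, with a median of 0.18. Ccl3, a chemokine gene that stem and myeloid cells can switch on, stood at 40.9, 35.7 and 39.7 CPM with FMT and 0.793, 0.318 and 0.671 CPM with saline. The 2 groups did not overlap, 64.1-fold apart (adjusted p = 1.28e-49), and Control stood at 108 CPM. Ccl4, its neighbour in the genome, rose 15.2-fold, at 37.4 against 2.44 CPM. The NF-kB subunit gene Nfkb1 moved the other way by a small step, falling 1.07-fold from 317 to 295 CPM. The type I interferon response was mixed, with 6 of 20 genes higher, 3 lower and 11 without a call: the antiviral gene Oas2 rose 1.23-fold, and Ifit2, another interferon-induced gene, fell 1.28-fold.

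Red cell surface genes formed the list with the highest median of the 58 examined. Of 18 genes of the red cell membrane and surface, 17 rose and 1 had no call, the median log2 fold change was 3.86 and 15 rose at least 2-fold. Their summed level was 1150.3 to 1207 CPM in the FMT libraries and 702 to 712 CPM in the saline libraries, with 1806 to 1862 CPM in the Control libraries. The sum rose by far less than the median gene did, so it leans on abundant members that changed less. Car1, carbonic anhydrase of red cell precursors, lies at chr3:14766216-14808368 and stood at 88.3, 85.7 and 88.98 CPM with FMT and 1.26, 2.48 and 2.22 CPM with saline (43.4-fold). Ermap, an erythroid membrane protein gene, stood at 44.2, 43.1 and 48.97 CPM and 0.463, 0.764 and 1.19 CPM (53.8-fold). Kel, the gene of the Kell blood group protein, stood at 11.7, 11.7 and 13.9 CPM and 0.132, 0.573 and 0.413 CPM (32.1-fold). In all 3 genes the saline libraries were close to the floor and the FMT libraries well above it. Ank1, the ankyrin that ties the membrane to the spectrin skeleton, was at 20.4 against 1.93 CPM (10.7-fold), and Aqp1, the water channel, at 64.4 against 20.8 CPM (3.07-fold).

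Genes outside that list with a similar profile included Pklr, the pyruvate kinase of red cells and liver, at chr3:89136142-89146784. It stood at 14.99, 17.6 and 18.5 CPM with FMT and 0.0661, 0.445 and 0.0516 CPM with saline (90.7-fold). Add2, the beta subunit of the membrane-skeleton protein adducin, was 22.8-fold higher and Atp1b2, a subunit gene of the sodium pump, 21.02-fold higher. Among genes with 3 counts or fewer in the saline group, which were chosen after their values were seen, Btnl10 was at least 87.8-fold higher. The amino acid transporter gene Slc38a5, chosen the same way but already counted on the red cell surface list, had a ratio of 112 and an interval of 37.9 to 546. Erythroid regulators had smaller changes. Of 10 genes of erythroid transcription factors and the erythropoietin receptor, 6 rose, 1 fell and 3 had no call, with a median of 0.15. Klf1, the master factor of red cell genes, rose 4.38-fold, at 14.7 against 3.34 CPM, and Lmo2, a cofactor shared with stem cells, rose 1.31-fold. Gata1, the central erythroid factor, showed no difference past the threshold, at 21.9, 21.2 and 22.5 CPM with FMT and 21.9, 21.4 and 23.5 CPM with saline (adjusted p = 0.813), and the 2 sets overlapped. Zfpm1, the GATA1 cofactor FOG1, fell 1.19-fold. Of 15 globin and heme synthesis genes, 8 rose, 1 fell and 6 had no call. Hba-a1, an alpha globin gene with a near-identical copy, was 5.11-fold higher at only 8.398 CPM. The gene that fell was Hbb-bt, an adult beta globin gene, at 22.7 against 27.4 CPM (1.21-fold, adjusted p = 0.0148), with 8.19 CPM in Control. Ppox, an enzyme of heme synthesis, rose 1.44-fold.

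Granule genes of early myeloid cells rose with FMT, and those of late neutrophils fell. Of 11 primary granule genes and their regulators, 10 rose and 1 had no call, with a median of 1.35 and 8 at least 2-fold. Their summed level was 1898 to 2006 CPM in the FMT libraries and 1027 to 1032 CPM in the saline libraries, with 3579.7 to 3659.6 CPM in the Control libraries. Elane, neutrophil elastase, lies at chr10:79886247-79888215 and stood at 138, 129 and 152 CPM with FMT and 5.88, 4.64 and 4.54 CPM with saline. The libraries were 28.02-fold apart without overlap (adjusted p = 6.55e-65). Mpo, myeloperoxidase, stood at 464, 444 and 499 CPM with FMT, and Ctsg, cathepsin G, rose 9.41-fold. Prtn3, proteinase 3, was already at 86.6 CPM with saline and rose 2.55-fold. Cebpa, the factor that commits progenitors to the myeloid lineage, was at 26.05 against 10.95 CPM (2.35-fold). Of 9 late neutrophil granule genes, 7 fell and 2 had no call, with a median of -0.90; the summed level was low, 25.7 to 32.2 CPM in the FMT libraries and 47.5 to 56.5 CPM in the saline libraries. Ltf, lactoferrin, was at 4.94 against 8.85 CPM and Mmp9, gelatinase B, at 2.46 against 6.36 CPM. Ly6g, Mmp8 and Retnlg, which mark mature neutrophils, were too low to be tested.

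Most basophil genes rose too. Genes of basophils and mast cells numbered 14, of which 10 rose and 4 had no call, with a median of 1.09. Prss34, a basophil serine protease, stood at 17.6, 15.7 and 18.3 CPM with FMT and 0.925, 0.827 and 1.03 CPM with saline, without overlap (18.2-fold). Mcpt8, another basophil protease, was 6.17-fold higher, and Hdc, which makes histamine, 4.58-fold. Of 8 eosinophil genes, 3 rose, 1 fell and 4 had no call: Prg2, the major basic protein, was at 20.8 against 9.47 CPM (2.19-fold), and Epx, eosinophil peroxidase, held 135 counts in the FMT libraries and 1 in the saline libraries. Of 12 monocyte genes, 4 rose, 3 fell and 5 had no call. Ly6c2, a surface gene of classical monocytes and their precursors, was at 33.01 against 8.59 CPM (3.82-fold), and Klf4, a monocyte regulator, at 106 against 32.1 CPM (3.304-fold), while Fn1, fibronectin, fell 1.73-fold. Of 16 megakaryocyte and platelet genes, 6 rose, 4 fell and 6 had no call. Plek, the platelet kinase substrate pleckstrin, stood at 129.9, 129 and 134 CPM with FMT and 26.6, 27.2 and 26.5 CPM with saline (4.89-fold), whereas Vwf, the von Willebrand factor gene of platelet-biased stem cells, fell 1.48-fold from 175 to 118 CPM and F2r, the thrombin receptor, fell 1.48-fold.

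Stem cell genes that passed the test changed by less than 2-fold. Of 24 stem cell transcription factors and identity genes, 12 rose, 2 fell and 10 had no call, with a median of 0.12. Hlf, at chr11:90336536-90390895, stood at 399, 388 and 396 CPM with FMT and 244, 239 and 245 CPM with saline. The FMT libraries were all higher, 1.62-fold (log2 fold change 0.70 ± 0.03, SE; adjusted p = 1.19e-34), and Control stood at 565 CPM. Hoxa9, a homeobox gene of stem and progenitor cells, rose 1.44-fold. Mecom, the stem cell factor EVI1, was at 151, 141 and 148 CPM and 156, 148 and 157 CPM and had no call (adjusted p = 0.163). Tcf15 and Ctnnal1, both known as marks of dormant or long-term stem cells, fell 1.49-fold and 1.27-fold. Procr stood at 67.8, 67.5 and 67.9 CPM and 61.8, 58.3 and 63.8 CPM; its adjusted p of 0.0318 did not hold without FMT replicate 1, 2 or 3 (0.0721, 0.0655 and 0.0721) or saline replicate 1 or 2 (0.0618 and 0.178), with RLE factors (0.0580), without the filter (0.0570) or with DESeq2 (0.0903).

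Genes of the sort gate moved in both directions, 4 of 11 higher, 5 lower and 2 without a call. Kit, the receptor of stem cell factor, stood at 538, 529 and 542 CPM with FMT and 403, 418 and 410.3 CPM with saline (1.31-fold, adjusted p = 7.64e-22), and Cd34, a gene of active and multipotent progenitors, was at 413 against 274 CPM (1.51-fold). Slamf1 stood at 23.5, 23.3 and 26.4 CPM with FMT and 35.1, 36.3 and 32.3 CPM with saline, 1.41-fold lower without overlap (adjusted p = 1.93e-06). Cd48 fell 1.15-fold (adjusted p = 0.00814), a call that was lost without FMT replicate 2 (0.0518). Ly6a, which encodes Sca1, was 1.09-fold lower (adjusted p = 0.0226), and lost that call without FMT replicate 2 (0.121), FMT replicate 3 (0.133), saline replicate 1 (0.0563) or saline replicate 2 (0.0790). Genes of progenitors, whether multipotent or primed for the lymphoid fate, numbered 16, of which 8 rose, 6 fell and 2 had no call. Flt3, the cytokine receptor that marks multipotent progenitors past the long-term stem cell stage, lies at chr5:147330741-147400489. It stood at 267, 275 and 296 CPM with FMT and 68.1, 71.7 and 72.8 CPM with saline, 3.94-fold higher without overlap (adjusted p = 1.36e-57), and Control stood at 584 CPM. Rag1, a recombinase of lymphoid precursors, fell 2.28-fold, and Dntt, the polymerase that adds bases at their junctions, fell 1.28-fold.

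Among cytokine receptor genes, 9 of 18 rose, 3 fell and 6 had no call. Csf3r, the G-CSF receptor, was at 155 against 78.0 CPM (1.99-fold). Il7r, the receptor of lymphoid precursors, fell 1.46-fold. Of 18 genes of STAT signalling and its feedback, 10 rose, 2 fell and 6 had no call: the feedback inhibitors Socs2 and Cish were the 2 that fell, 1.58-fold and 1.31-fold, and Jak3 rose 1.23-fold. Of 21 TGF-beta and BMP genes, 4 rose and 5 fell. The inhibitor Smad7 rose 2.22-fold, from 38.7 to 86.04 CPM, and the repressor Skil rose 1.64-fold, while the ligand Tgfb1 fell 1.38-fold and the co-receptor Tgfbr3 1.46-fold.

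Cell-cycle genes were lower with FMT, by small and even steps. Of 24 DNA replication genes, 23 fell and 1 had no call, with a median of -0.33; of 24 mitosis genes, 23 fell and 1 had no call, with a median of -0.32. Top2a, the topoisomerase that untangles chromosomes, lies at chr11:98992943-99024189 and stood at 723, 713 and 663 CPM with FMT and 942, 903 and 924 CPM with saline. The groups did not overlap and the drop was 1.32-fold (log2 fold change -0.40 ± 0.03, SE; adjusted p = 1.87e-22), with Control at 359 CPM. Uhrf1, which carries DNA methylation through replication, stood at 310.1, 312 and 300.2 CPM and 444, 450.2 and 447 CPM (1.45-fold, adjusted p = 1.18e-27). Rrm2, the ribonucleotide reductase subunit that supplies deoxynucleotides, fell 1.49-fold, and Ube2c, a ubiquitin enzyme of mitotic exit, fell 1.42-fold. Of 15 cyclins and cyclin-dependent kinases, 14 fell and 1 rose. Ccnd1 and Ccnd3, D-type cyclins of the first growth phase, fell 1.54-fold and 1.42-fold, whereas Cdk6, their kinase, rose 1.16-fold from 419 to 484 CPM.

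Brakes on the cycle were mixed, with 6 of 15 quiescence genes and CDK inhibitors higher, 6 lower and 3 without a call. Cdkn1b, which encodes p27, rose 1.27-fold, and Txnip, a regulator of glucose uptake and redox state, rose 1.44-fold. Cdkn1a, the p53 target p21 at chr17:29090976-29100727, stood at 76.5, 84.6 and 72.2 CPM with FMT, 89.04, 97.9 and 93.5 CPM with saline and 93.9, 92.6 and 93.04 CPM in Control. It was 1.202-fold lower than with saline (adjusted p = 8.41e-06), and its FMT libraries lay below all 6 others. Of 20 p53 targets and regulators, 6 rose and 6 fell. Of 25 DNA repair genes, 17 fell and 8 had no call, among them Ung and Tdg, glycosylases that cut uracil and 5-fluorouracil from DNA, at 1.403-fold and 1.29-fold. Of 15 genes of 5-FU targets and pyrimidine metabolism, 10 fell, 1 rose and 4 had no call. Cad, which starts pyrimidine synthesis, fell 1.31-fold, and Upp1, uridine phosphorylase, was the gene that rose (1.49-fold, at 6.29 against 4.196 CPM). In the BCL2 family, 4 of 13 rose and 4 fell: Mcl1, a survival gene of stem cells, was at 648 against 438 CPM (1.48-fold) and the death-promoting Bcl2l11 rose 1.59-fold, while Bcl2l1, the gene of BCL-XL, fell 1.49-fold.

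Oxidative phosphorylation and proteasome genes fell throughout both lists. All 24 nuclear-encoded oxidative phosphorylation genes listed fell, with a median of -0.25, and all 22 proteasome genes listed fell, with a median of -0.23. The ATP synthase gene Atp5b stood at 1082, 1061 and 1046 CPM with FMT and 1325, 1327 and 1322 CPM with saline, 1.25-fold lower without overlap. Psma6, a subunit of the proteasome core, fell 1.27-fold. Among 22 genes for making ribosomes and other MYC targets, 16 fell, 1 rose and 5 had no call. The gene that rose was Myc itself (1.16-fold), and the nucleolar gene Ncl fell 1.195-fold. Of 26 cytosolic ribosomal protein genes, whose processed pseudogenes can take reads, 15 had no call, 10 fell and 1 rose. Of 19 glycolysis genes, 13 fell and 3 rose: Ldha, lactate dehydrogenase, fell 1.32-fold from 804 to 607 CPM, and Slc2a3, a glucose transporter, rose 1.25-fold. Among mitochondrially encoded mRNAs, 5 of 12 fell and 7 had no call, with mt-Nd1, a complex I subunit, 1.18-fold lower. The called shares of the cytosolic ribosomal protein and mitochondrially encoded genes were near the 36.9% of all genes. Actb, beta actin, and Tubb5, a beta tubulin, were among the genes that lost the most CPM, at 1.21-fold and 1.25-fold.

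**Figure D3:**
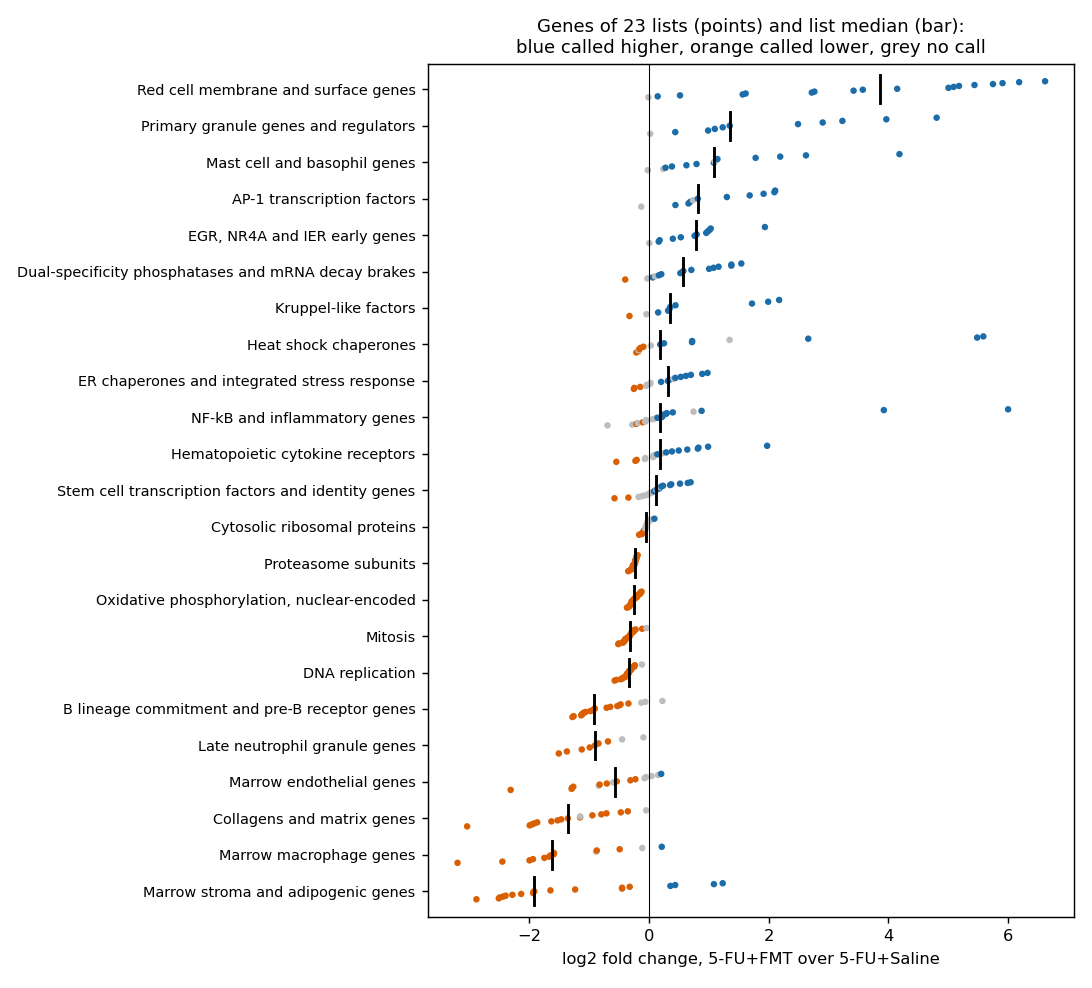
Fitted log2 fold changes of 5-FU+FMT over 5-FU+Saline for the tested members of 23 gene lists, with 1 point per gene and the list median as a bar; blue points were called higher, orange points lower and grey points not called. Red cell surface genes lie furthest above 0, at a median of 3.86, and stromal genes furthest below it, at a median of -1.91.

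B-lineage genes were lower with FMT. Of 20 genes of B-lineage commitment and the pre-B receptor, 17 fell and 3 had no call, with a median of -0.91 and 7 at least 2-fold lower. Their summed level was 1273 to 1321 CPM in the FMT libraries and 1969.8 to 1996 CPM in the saline libraries, with 717 to 723 CPM in the Control libraries. Igll1, part of the surrogate light chain of pre-B cells at chr16:16860671-16863985, stood at 73.4, 71.3 and 59.7 CPM with FMT and 151, 153 and 144 CPM with saline. The groups did not overlap (2.19-fold, adjusted p = 1.94e-30), and at 0.308 CPM the Control group was near the floor. The antigen receptor signalling gene Cd79a fell 1.87-fold, from 174 to 92.9 CPM. Plasma cell genes were mixed, with 4 of 12 higher, 3 lower and 5 without a call. Jchain, the joining chain of secreted antibodies, was already abundant and rose 1.22-fold, at 1820.1 against 1497 CPM, while Mzb1, a chaperone of plasma and marginal-zone B cells, fell 1.302-fold. Of 11 immunoglobulin constant genes, 7 rose and 4 fell: Ighm rose 1.41-fold and Iglc2, a lambda constant gene at chr16:19198396-19200351, rose 5.76-fold, at 657, 624 and 692 CPM with FMT and 119, 116 and 109 CPM with saline.

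The immunoglobulin variable segments, each used by a small share of B cells, changed in both directions. Of 187 segments tested, 89 were higher and 61 lower, 58 and 21 of them at least 2-fold. Segments with high sequence similarity can lose or exchange reads, so single values carry that uncertainty. The segments named here were chosen after their values were seen. Ighv6-6 stood at 25.9, 26.5 and 26.9 CPM with FMT, 158, 149 and 155 CPM with saline and 33.1 CPM on average in Control. Igkv1-135 stood at 42.1, 40.2 and 44.99 CPM with FMT, 241, 239 and 242 CPM with saline and 55.7 CPM in Control. In the opposite direction, Ighv1-50 stood at 69.1, 65.8 and 64.1 CPM, 15.6, 12.9 and 14.04 CPM and 57.4 CPM. The lambda segment Iglv2 gained the most CPM, from 142, 129 and 138 CPM with saline to 866, 843 and 928 CPM with FMT, and Control was at 2325 CPM. For Ighv6-6, Igkv1-135 and Ighv1-50 the FMT libraries lay outside the range of all 6 others. Ighv15-2 held 904 counts in the FMT libraries and 3 in the saline libraries, a ratio of 347 with an interval of 118 to 1685, and Control held 1326. Ighv1-20 held 350 counts in the FMT libraries, 0 in the saline libraries, at least 134-fold higher with FMT, and 577 in Control. Igkv8-26 held 48 counts in the saline libraries and 0 in those of both other groups, at least 13.9-fold lower with FMT.

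**Figure D4:**
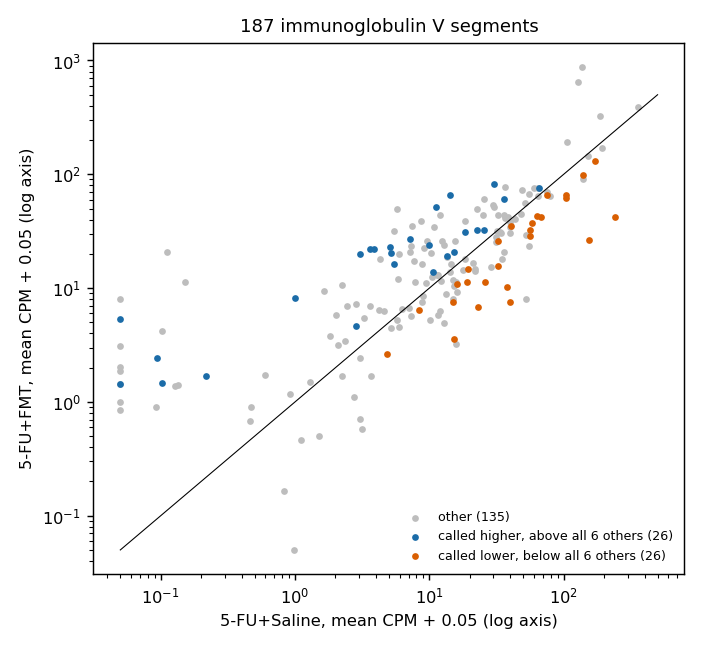
Mean CPM of the immunoglobulin variable segments in 5-FU+FMT against 5-FU+Saline, both as CPM + 0.05 on log axes, with 1 point for each of the 187 segments tested. The coloured points are the 26 segments above and the 26 below all 6 other libraries, which scatter on both sides of the line of equal levels.

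Stromal genes had the lowest list median over all tested members; over members of at least 5 CPM, marrow macrophage genes were marginally lower (-1.65 against -1.64). Of 19 marrow stroma and adipogenic genes, 15 fell and 4 rose, with a median of -1.91 and 12 at least 2-fold lower. Their summed level was 584 to 614 CPM in the FMT libraries and 932 to 943 CPM in the saline libraries, with 516 to 532 CPM in the Control libraries. Lpl, lipoprotein lipase of marrow fat and stroma, lies at chr8:68880491-68907448 and stood at 9.197, 11.7 and 9.97 CPM with FMT and 55.5, 57.9 and 59.4 CPM with saline. The 2 groups were far apart, 5.62-fold (log2 fold change -2.49 ± 0.09, SE; adjusted p = 6.76e-37), and Control was at 1.605 CPM. Adipoq, the fat cell hormone adiponectin, stood at 1.29, 1.62 and 1.66 CPM and 10.4, 9.799 and 13.2 CPM (7.36-fold), and Lepr, the leptin receptor of perivascular stroma, at 2.44, 2.25 and 2.24 CPM and 8.79, 12.3 and 9.45 CPM (4.38-fold). The niche chemokine gene Cxcl12 stood at 24.2 CPM with FMT and 127 CPM with saline (5.25-fold lower), with 2.32 CPM in Control, and Igfbp5, a binding protein of insulin-like growth factors, fell 4.85-fold. The 4 members that rose were the myeloid factor Cebpa, given above, the growth factor receptor gene Pdgfrb, at 27.6 against 12.97 CPM (2.13-fold), and 2 genes named after their values were seen, Cebpd and Hp. Of 17 collagen and matrix genes, 15 fell and 2 had no call, with a median of -1.35. Sparc, a matrix protein of stroma and bone, was 3.97-fold lower and Col6a1 3.77-fold, while Col4a1, a basement membrane collagen, was abundant in both groups and fell 1.38-fold from 212 to 153 CPM.

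Macrophage and endothelial genes showed the same direction. Of 14 marrow macrophage genes, 11 fell, 1 rose and 2 had no call, with a median of -1.61. Their summed level was 86.3 to 89.6 CPM in the FMT libraries and 140.4 to 142 CPM in the saline libraries, with 73.4 to 79.7 CPM in the Control libraries. Mrc1, the mannose receptor, stood at 4.31, 3.79 and 3.11 CPM with FMT and 10.8, 13.6 and 11.4 CPM with saline (3.17-fold), and Vcam1, an adhesion gene of macrophages, stroma and endothelium, at 7.203, 6.74 and 7.73 CPM and 20.2, 25.4 and 22.2 CPM (3.12-fold). Neither overlapped between the groups. Of 16 endothelial genes, 9 fell, 1 rose and 6 had no call: Stab1, a scavenger receptor of sinusoids, fell 2.396-fold, and Pecam1, which stem cells also express, rose 1.15-fold. Lyve1, a lymphatic and sinusoidal gene, had 0 counts in all 9 libraries. Gpx3, a secreted glutathione peroxidase, and Car3, carbonic anhydrase of fat and muscle, fell 3.54-fold and 3.02-fold. The summed levels of red cell, granule, B-lineage, stromal and macrophage genes all moved with the treatment; the part of such cells in the differences of other genes was not tested.

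Genes of iron and heme handling moved apart. Of 21 genes, 5 rose, 9 fell and 7 had no call, with a median of -0.05. Hmox1, heme oxygenase that frees iron from heme, lies at chr8:75093621-75100589 and stood at 7.07, 6.39 and 7.51 CPM with FMT and 20.9, 18.96 and 16.9 CPM with saline, 2.698-fold lower without overlap (adjusted p = 2.34e-15). Blvrb, a biliverdin reductase abundant in red cells, rose 2.18-fold, at 26.1 against 12.02 CPM. Ncoa4, the receptor that sends ferritin to the lysosome, rose 1.14-fold, and Pcbp1, an iron chaperone, fell 1.19-fold. Slc40a1, the iron exporter ferroportin, stood at 8.68, 11.2 and 9.24 CPM with FMT, 12.03, 13.04 and 11.6 CPM with saline and 15.1, 16.8 and 13.01 CPM in Control. Its FMT libraries were the lowest of the 9, 1.26-fold below saline (adjusted p = 0.0319), but that call was lost without FMT replicate 1 (0.166), FMT replicate 3 (0.101), saline replicate 1 (0.0550) or saline replicate 2 (0.118), without the filter (0.0552) and with DESeq2 (0.0507). Of 20 antioxidant and ferroptosis defence genes, 7 fell, 1 rose and 12 had no call, a called share near the 36.9% of all genes; Prdx1, a peroxiredoxin, fell 1.28-fold, and Nfe2l2, the NRF2 gene, rose 1.13-fold.

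Antigen presentation was mixed. Class I presentation genes were higher in 8 of 15 cases and lower in 3, with the nonclassical gene H2-Q6, which has close copies, at 309 against 180.4 CPM (1.71-fold). At class II, 3 of 10 genes were higher and 3 lower. H2-Ob, a modulator of peptide loading in B cells, was at 51.4 against 25.5 CPM (2.01-fold), while the class II chain genes H2-Eb1 and H2-Ab1 fell 1.44-fold and 1.16-fold. Of 23 cholesterol genes, 7 rose, among them Insig1, which holds back the sterol response factors (1.55-fold), 1 fell and 15 had no call. Among 22 genes of lysosomes and autophagy, 5 rose and 4 fell, with the autophagy kinase Ulk1 1.595-fold higher. Called shares here, 8 of 23 for cholesterol and 9 of 22 for autophagy, were close to the 36.9% of all genes, as they were for interferon genes (9 of 20) and TGF-beta genes (9 of 21). Of 12 amino acid transporters, 6 fell and 2 rose; Slc7a5, which imports leucine, fell 1.38-fold. In the group of DNA methylation and Polycomb regulators, 5 of 20 rose and 5 fell: Kdm6b, a histone demethylase, rose 1.49-fold, and the maintenance methyltransferase Dnmt1 and the chromatin remodeller Hells fell 1.26-fold and 1.39-fold. Of 11 imprinted growth genes, 4 rose, 2 fell and 5 had no call. Meg3, an imprinted noncoding RNA of long-term stem cells at chr12:109541001-109571726, stood at 22.96, 27.7 and 29.97 CPM with FMT and 1.19, 0.764 and 1.03 CPM with saline, without overlap (26.7-fold), and Dlk1 from the same imprinted cluster was at 2.54 against 0.858 CPM, while the more abundant Grb10, which encodes an adaptor that restrains growth factor signalling, fell 1.38-fold, at 124 against 170.4 CPM. Of 17 adhesion genes, 8 fell and 2 rose; Itgb2, the integrin chain CD18, fell 1.27-fold, and Cd44 rose 1.17-fold. Of 13 T and NK cell genes, 2 rose and 11 had no call, and of 9 dendritic cell genes, 2 rose and 2 fell. The called shares of dendritic cell, eosinophil, and methylation and Polycomb genes were not far above the 36.9% of all genes. That of T and NK cell genes was below it. Of 18 mitochondrial ribosomal protein genes, 12 fell, led by Mrpl12 (1.29-fold).

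The FMT group was then placed between the other 2. For genes whose Control and saline libraries did not overlap, with means at least 4-fold apart and one of them at 10 CPM or more, the place of the FMT mean was expressed as a percentage, with saline at 0% and Control at 100%. The measure uses the saline libraries on both sides of the ratio, so it is a description without a test. It was taken on the CPM scale and, as an alternative chosen after seeing the data, on the log2 scale of the fitted fold changes, and the order of genes depended on that scale. Over 285 genes the median place was 41.1% in CPM (quartiles 34.6% and 51.6%) and 56.3% in log2, and 278 genes lay between 0% and 100% on either scale. The 181 genes with Control above saline had a median of 37.8% in CPM and 62.3% in log2, and the 104 genes with Control below saline one of 53.5% in CPM and 27.4% in log2, so which of these sets lay nearer Control turned with the scale. The list medians turned with it too, over few genes each. AP-1 genes (5) lay at 34.6% in CPM and 59.6% in log2, primary granule genes (6) at 36.9% and 70.0%, and red cell surface genes (14) at 40.6% and 78.8%. B-lineage genes (12) lay at 53.9% in CPM and 17.4% in log2, collagen genes (5) at 69.3% and 38.8%, and stromal genes (8) at 81.1% and 44.7%. Cxcl12 lay at 82.4% in CPM and 41.4% in log2, and Hspa1b at 32.5% and 77.7%. On either scale, FMT means lay between those of saline and Control in nearly all of these genes. The log2 scale keeps the order of levels, so this is 1 observation and not 2. In CPM, the 7 genes beyond either end were all immunoglobulin variable segments, from -18.5% for Igkv3-1 to 144% for Ighv2-5; they are named because the count is small. The FMT libraries differed slightly, since FMT replicate 3 was the closest to Control in CPM at 157 of the 285 genes, against 63 for replicate 1 and 65 for replicate 2.

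**Figure D5:**
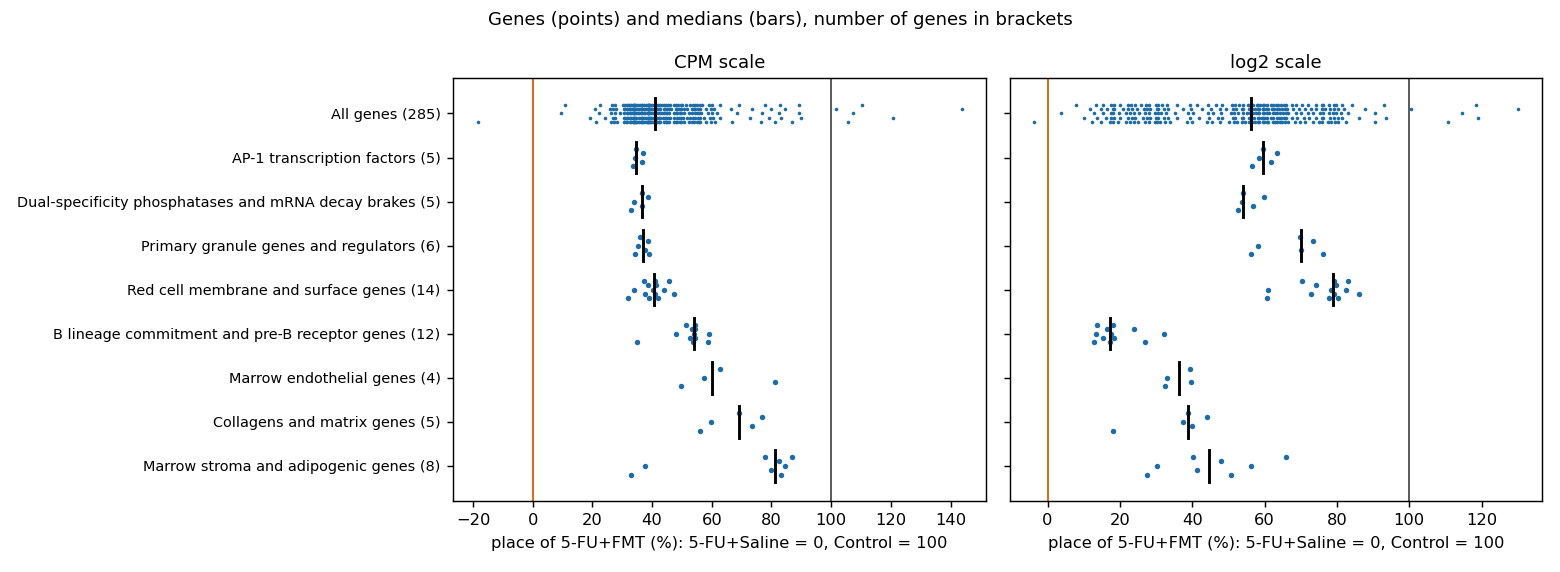
Place of each 5-FU+FMT mean between 5-FU+Saline (0%) and Control (100%) on the CPM scale (left) and on the log2 scale of the fitted fold changes (right), for all 285 genes and for the genes of 8 lists, with 1 point per gene and the median as a bar. Stromal genes lie at a median of 81.1% and red cell surface genes at 40.6% on the left, and at 44.7% and 78.8% on the right.

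Few genes lay outside both other groups. Genes called higher with all 3 FMT libraries above all 6 others numbered 62 (0.374%), and genes called lower with all 3 below numbered 63 (0.38%). Immunoglobulin variable segments made up 26 of the first and 26 of the second, of 187 tested, and protein-coding genes 30 and 32, of 13201 tested. Among the protein-coding genes, only 4 of the higher and 3 of the lower genes were at least 2-fold from saline. Tpsb2, a mast cell tryptase, stood at 10.7, 10.5 and 9.46 CPM with FMT, 4.098, 5.66 and 4.65 CPM with saline and 2.31, 0.917 and 1.71 CPM in Control (2.12-fold, adjusted p = 4.93e-07). Tgfbi, a secreted matrix protein of myeloid cells, stood at 82.3, 78.7 and 77.7 CPM, 65.7, 68.3 and 69.7 CPM and 44.5, 48.8 and 45.96 CPM. Both sets of FMT libraries were the highest of the 9. Zfp748 and Zfp260, zinc-finger genes, were 1.44-fold and 1.19-fold above saline. Pigc, part of the enzyme that starts GPI anchors, and Stard9, a mitotic kinesin, were called at 0.0241 and 0.03596; leaving out FMT replicate 1 or 3 ended both calls (0.0833 and 0.0827 for Pigc, 0.117 and 0.114 for Stard9), as did saline replicate 3 for Pigc (0.189) and saline replicate 1 or 2 for Stard9 (0.126 and 0.0806). DESeq2 gave 0.0632 for Pigc and 0.0893 for Stard9, and Stard9 was also lost with RLE factors (0.0516) and without the filter (0.0679). On the lower side, H2-Eb1 stood at 24.2, 20.3 and 22.2 CPM with FMT, 32.7, 34.5 and 29.3 CPM with saline and 30.5, 30.2 and 28.2 CPM in Control. Chd7, a chromatin remodeller, was at 20.4 ± 2.202, 27.6 ± 0.438 and 25.2 ± 3.41 CPM (SD, n = 3), and Sdf2l1, an endoplasmic reticulum protein, at 43.4 ± 2.44, 51.6 ± 1.897 and 50.4 ± 1.11 CPM (SD, n = 3). Chd7 and Sdf2l1 both passed the test (adjusted p = 6.04e-05 and 8.91e-04).

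Noncoding classes differed in direction. Of 1640 antisense, sense intronic, bidirectional promoter, processed and TEC transcripts tested, 251 (15.3%) were higher and 12 (0.732%) lower, against 17.7% and 19.2% over all genes. Fewer were called in either direction, and most of the calls were higher, with a median log2 fold change of 0.28 against 0.01 over all genes. Among 732 processed pseudogenes, 27 were higher and 61 lower, with a median of -0.04. The 1640 transcripts took 0.794% of the counts in the FMT group, 0.690% in the saline group and 0.921% in Control. The counting used no strand option, so their reads cannot be told apart from those of genes on the other strand. The rRNA and other small RNA class held 0.743 ± 0.0601% of the counts with FMT (SD, n = 3), 0.232 ± 0.0163% with saline and 1.67 ± 0.0607% in Control. These shares depend on library preparation and moved with the groups in the same order as the early genes. Their part in those genes' differences was not tested. By chromosome, the median log2 fold change stayed between -0.03 and 0.07 except on Y, at 1.17, and on the mitochondrial genome, at -0.18.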

How the data were processed

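RNA of sorted cells was sequenced as paired reads in 9 libraries, 3 per group. The deposited files hold raw counts of read pairs per gene, made by the authors: per the submitters' processing notes, with Trim Galore 0.6.5, HISAT2 2.2.1, SAMtools and featureCounts 2.0.1 on mm10, and per the file headers, on the GENCODE M25 annotation with pairs counted and no option for strand, multi-mapping or overlapping genes. Reads that fit several genes are therefore not counted, which lowers near-identical copies. Symbols matched 55141 of 56262 gene IDs, and biotypes, from another GENCODE release, 55227.

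Counts were filtered by group with edgeR 4.0.16 (filterByExpr) in R 4.3.3 and scaled with TMM factors. All 9 libraries entered 1 quasi-likelihood fit, the contrast was 5-FU+FMT minus 5-FU+Saline, and a gene was called where its p, adjusted over all genes tested by the Benjamini-Hochberg method, was under 0.05. Folds are fitted folds, and levels are CPM. On counts simulated for 16209 genes of this comparison, 26 of 50 genes changed 1.2-fold and 47 of 50 changed 2-fold were recovered, and 13 of 16009 unchanged genes were called. The simulation took its spread from these same libraries and changed only genes above a minimum expected count in the saline group. The shares recovered therefore do not cover the lowest genes, and no spread between mice beyond that of the libraries was added. Alternatives were run with edgeR, limma 3.58.1 and DESeq2 1.42.0.

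Genes were named by a rule: per direction, the 12 largest folds among called genes with 10 CPM in a group, no overlap between libraries and a gene symbol that is not a clone name, pseudogene or immunoglobulin segment; the 5 largest differences in CPM; the 6 furthest outside all other libraries; up to 4 called members of each of 58 lists; and a few markers. Exceptions are marked in the text. The comparison and the lists were chosen with earlier results of these data known. Lists are described by counts and medians, without a test. A fold against a group with 0 counts is given as "at least", with 3 counts put in for the whole group, and with 1 to 3 counts as a ratio with an exact 95% interval; both cover counting error only. Promoter windows are from RefSeq on GRCm38.p6.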

Additional observations from a re-analysis of the deposited data

How the results depend on the processing

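Depth of 13723506 to 19270976 counts per library in the 2 groups limits genes below about 10 CPM, and 3 libraries a group limit small folds. Direction held for 236 of the 237 genes named by the rule under all 15 alternatives, and of the 235 called, 219 also kept the call in every alternative that gave a value (4 pairs of gene and alternative gave none). The exception was Gata1, never called, which ran from -0.0627 without 5-FU+Saline replicate 2 to 0.0086 without 5-FU+Saline replicate 3 (log2). Counts of genes higher and lower were 2739 and 3457 with RLE factors, 3136 and 2972 with upper-quartile factors, 2726 and 2974 without the filter, 2425 and 3068 with DESeq2, 2904 and 3252 with limma-voom, and 3012 and 3242 with the 6 libraries alone, where no count outside the other libraries could be made. Which side held more genes therefore turned with upper-quartile factors, and also with the stricter filter (2823 and 2777). Genes at least 2-fold higher and lower numbered 288 and 79 with the stricter filter, which tests fewer low genes, against 586 and 267. With the 6 libraries alone they numbered 510 and 275. Genes below all 6 other libraries numbered 97 with upper-quartile factors, against 63; the cause was not tested. Leaving out 1 library gave 2536 to 2680 higher, 2755 to 2877 lower, 552 to 580 and 244 to 273 at 2-fold, and 54 to 93 above and 56 to 94 below all others.

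Replicate numbers are shared between the groups, but correlations of same-numbered libraries lay between -0.0173 and 0.00473, so they share only a number; with the replicate block the counts were 2982 higher and 3211 lower. The median place between the groups was 40.6% to 42.2% without 1 library, 41.0% without immunoglobulin segments and 56.3% on the log2 scale, all chosen after seeing the data. Of 58 list medians, 2 turned sign with a shift larger than the list's spread between libraries, and smaller turns of sign were not counted. T and NK cell genes, at -0.10, came to 0.32 with the stricter filter, 0.31 over members of at least 5 CPM, and -0.11 to 0.0518 without 1 library. The p53 genes, at -0.01, came to 0.0432 and 0.0287 with the first 2 of these. The cause was not tested.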
